A study of Mus musculus with 11 samples.

Results

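The genes described here are Lama3, Lamb3, Col17a1, Dst, Plec, Cd151, Col7a1, Col4a1 and Col4a2, which encode parts of laminin-332, the hemidesmosome and the basement membrane that hold the epidermis to the dermis. They were chosen for their place in these structures, with earlier results of these data known. They are 9 of the 24421 genes in the count tables, and all 9 were among the 14045 genes that passed the filter on low counts and were tested.

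Laminin-332, which holds the chains of Lama3 and Lamb3, is secreted by basal keratinocytes, which also lay it down as they move over a wound bed. In a hemidesmosome, the integrin built from the Itga6 and Itgb4 chains and the transmembrane collagen of Col17a1 hold this laminin from outside, and the plakins encoded by Plec and Dst tie both to keratin filaments inside the cell. Type IV collagen, whose most widespread chains are those of Col4a1 and Col4a2, forms the network of the basement membrane, and anchoring fibrils of type VII collagen (Col7a1) fasten that network to the dermis.

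The study compared epidermal keratinocytes from wound margins with keratinocytes from distal unwounded skin, in WT mice and in mice labelled GRHL3 KO. RNA-seq gave 7 libraries, of which 2 were WT unwounded, 2 WT wounded, 1 GRHL3 KO unwounded and 2 GRHL3 KO wounded, and ATAC-seq gave 1 library for each of these 4 conditions. All mice were littermates of both sexes, 8 weeks old, labelled C57BL/6, and the methods give the background as C57BL/6J. The wounds were 4 mm punch wounds of the back whose 1 mm margins were collected 3 days after wounding. The knockout joined floxed Grhl3 alleles to a Cre driven by the Krt14 promoter, so deletion is limited to cells that have used that promoter, and the methods call the control littermates Krt14-Cre-WT. Cells of both conditions were sorted for surface integrin alpha 6 (CD49F) and against CD45, CD31 and TER119, so the product of Itga6, the hemidesmosome's own laminin receptor, was part of the gate. Each ATAC-seq library was a pool over 2 mice. Keratinocytes for RNA-seq were isolated with n = 2 for each genotype, but no source used here ties a library to an animal, so p-values measure the spread between these libraries, which may be between animals or in part technical.

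The depth, as reads counted on genes, was 15488699 for WT unwounded replicate 1 and 16807451 for replicate 2, and 16653948 and 15418631 for the WT wounded replicates. GRHL3 KO unwounded replicate 2 had 13497283 and the GRHL3 KO wounded replicates 15223569 and 14279568. Levels are given as CPM, a gene's count scaled to a fixed total of counts on genes, always in this order of libraries, and a floor of 3 counts corresponded to at most 0.222 CPM.

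Grhl3, the targeted gene, was at 122 and 83.2 CPM in WT unwounded, 109.9 and 90.0 CPM in WT wounded, 76.2 CPM in GRHL3 KO unwounded, and 116 and 104 CPM in GRHL3 KO wounded keratinocytes. These values overlapped between genotypes, with a log2 fold change of 0.17 (SE 0.21) for GRHL3 KO wounded against WT wounded. A count here pools all exons of Grhl3, the floxed ones included, so it checks nothing about the deletion, and GRHL3 KO names libraries by their label throughout.

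The GRHL3 KO unwounded library stood apart. Xist was at 1101 CPM there and at no more than 1.92 CPM in the other 6 libraries, while the Y-linked genes Ddx3y, Eif2s3y, Kdm5d and Uty were at 0 counts there and Ddx3y was at 88.7 CPM or more elsewhere. By these genes the other 6 libraries had the pattern of male cells, and the GRHL3 KO unwounded library had that of female cells. Its title gives replicate 2 and the name of its deposited table replicate 1. As it is the only library of its group, this sex-linked pattern, the library itself and the group cannot be told apart, and results that rest on it are given with and without it where that is possible.

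The keratinocyte label was checked against markers. Krt14, an intermediate filament of basal keratinocytes, was at 12190.4 to 19442 CPM and its partner Krt5 at 10933 to 15372 CPM over the 7 libraries, and the 6 basal markers summed to 28339 to 40866 CPM. Endothelial markers (12 genes) summed to 8.59, 9.94, 40.9, 26.9, 2.82, 18.8 and 27.4 CPM in the 7 libraries, with Cdh5 the most abundant in WT wounded replicate 1 at 6.42 CPM. Leukocyte markers (8 genes) summed to 7.42, 16.2, 16.3, 36.1, 11.7, 15.3 and 19.0 CPM, most of it Cd74, and Cd3e was at 0 in every library. Of the mural markers (8 genes, 169 to 293 CPM in sum) Abcc9 was at 0 in every library and Rgs5 in 6 of 7, and the sum was mostly Cspg4 and Notch3. Fibroblast markers (8 genes) summed to 873 to 1383 CPM, of which Postn alone gave 787 CPM or more, and melanocyte markers (5 genes) summed to 1.07 to 9.55 CPM. Suprabasal markers (6 genes) were present at 3345 to 8775 CPM in sum, highest in the GRHL3 KO unwounded library and lowest in WT wounded replicate 1.

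Per kb of exon, the members spanned a wide range of mean levels over the 7 libraries. Col17a1 was highest at 915 CPM per kb, followed by Plec at 245, Dst at 91.8, Lamb3 at 79.3, Lama3 at 50.6, Col7a1 at 44.9, Cd151 at 27.2, Col4a1 at 8.17 and Col4a2 at 7.42 CPM per kb. The ranges of Dst and Lamb3, of Lama3 and Col7a1, and of Col4a1 and Col4a2 overlapped and their order changed between libraries, so these neighbours did not differ beyond their spread. The ranges of Lamb3 and Lama3 overlapped too, but Lamb3 lay above Lama3 in each of the 7 libraries. Lengths join all annotated exons, which for Dst (41.2 kb) include exons of several alternative forms, so the per-length level of Dst is lowered by exons these cells may not use. Among the related genes, the desmosomal plakin Dsp was the only one above Col17a1, at a mean of 1313 CPM per kb, and the integrin chains Itga6 and Itgb4 stood at 161 and 120.0 CPM per kb.

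Lama3, the alpha chain of laminin-332, was at 361 and 355 CPM in WT unwounded, 516 and 1122 CPM in WT wounded, 397 CPM in GRHL3 KO unwounded, and 576 and 478 CPM in GRHL3 KO wounded keratinocytes. All 4 wounded libraries lay above all 3 unwounded ones, and WT wounded replicate 2 was far above the rest. Lamb3, the beta chain, was at 441 and 411 CPM in WT unwounded, 453 and 777 CPM in WT wounded, 639 CPM in GRHL3 KO unwounded, and 529 and 419 CPM in GRHL3 KO wounded keratinocytes. Its wounded and unwounded libraries overlapped once the genotypes were joined, with GRHL3 KO unwounded second highest and GRHL3 KO wounded replicate 2 below WT unwounded replicate 1.

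The Lama3 and Lamb3 chains did not keep 1 ratio between libraries. Lama3 per kb was 0.503 and 0.533 of Lamb3 in WT unwounded, 0.701 and 0.889 in WT wounded, 0.382 in GRHL3 KO unwounded, and 0.670 and 0.702 in GRHL3 KO wounded keratinocytes, with the genotypes overlapping after wounding. All 4 wounded libraries had a higher ratio than all 3 unwounded ones, and the ratios are a description and were not tested.

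Col17a1, the transmembrane collagen of the hemidesmosome, was at 5059 and 4793 CPM in WT unwounded, 4739.9 and 5889 CPM in WT wounded, 7123 CPM in GRHL3 KO unwounded, and 5653 and 5238 CPM in GRHL3 KO wounded keratinocytes. The GRHL3 KO unwounded library was highest. Below it, both GRHL3 KO wounded values lay above both WT unwounded ones, and the WT wounded values overlapped with both of these groups. Dst, whose epithelial product links keratin filaments to Col17a1 and the integrin, was at 2964 and 2852 CPM in WT unwounded, 3754 and 2919 CPM in WT wounded, 6699 CPM in GRHL3 KO unwounded, and 3454 and 3808 CPM in GRHL3 KO wounded keratinocytes. Again the GRHL3 KO unwounded library stood alone at the top, and both GRHL3 KO wounded values lay above both WT unwounded ones, with WT wounded overlapping each. Plec, the other plakin of the plaque, stayed between 4051 and 4957 CPM and Cd151, a tetraspanin that associates with laminin-binding integrins, between 64.5 and 81.6 CPM, with most groups overlapping. Both WT wounded values of Plec (4538 and 4957 CPM) lay above the GRHL3 KO unwounded one (4113 CPM), and both GRHL3 KO wounded values of Cd151 (74.8 and 75.1 CPM) just above its GRHL3 KO unwounded one (73.5 CPM). The highest library was 1.22 times the lowest for Plec and 1.27 times for Cd151, the narrowest ranges of the 9 members.

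Col7a1, the anchoring fibril collagen, was at 357 and 342 CPM in WT unwounded, 402 and 634 CPM in WT wounded, 479.9 CPM in GRHL3 KO unwounded, and 441 and 579 CPM in GRHL3 KO wounded keratinocytes. Both WT unwounded libraries were below the other 5. Col4a1 was at 63.5 and 46.5 CPM in WT unwounded, 132 and 38.9 CPM in WT wounded, 54.8 CPM in GRHL3 KO unwounded, and 42.4 and 49.1 CPM in GRHL3 KO wounded keratinocytes. WT wounded replicate 1 was highest and WT wounded replicate 2 lowest, so the WT wounded group enclosed all other libraries. Col4a2 was at 46.6 and 31.7 CPM in WT unwounded, 83.1 and 33.9 CPM in WT wounded, 66.2 CPM in GRHL3 KO unwounded, and 44.4 and 38.1 CPM in GRHL3 KO wounded keratinocytes. It too was highest in WT wounded replicate 1, with GRHL3 KO unwounded next.

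**Figure D1:**
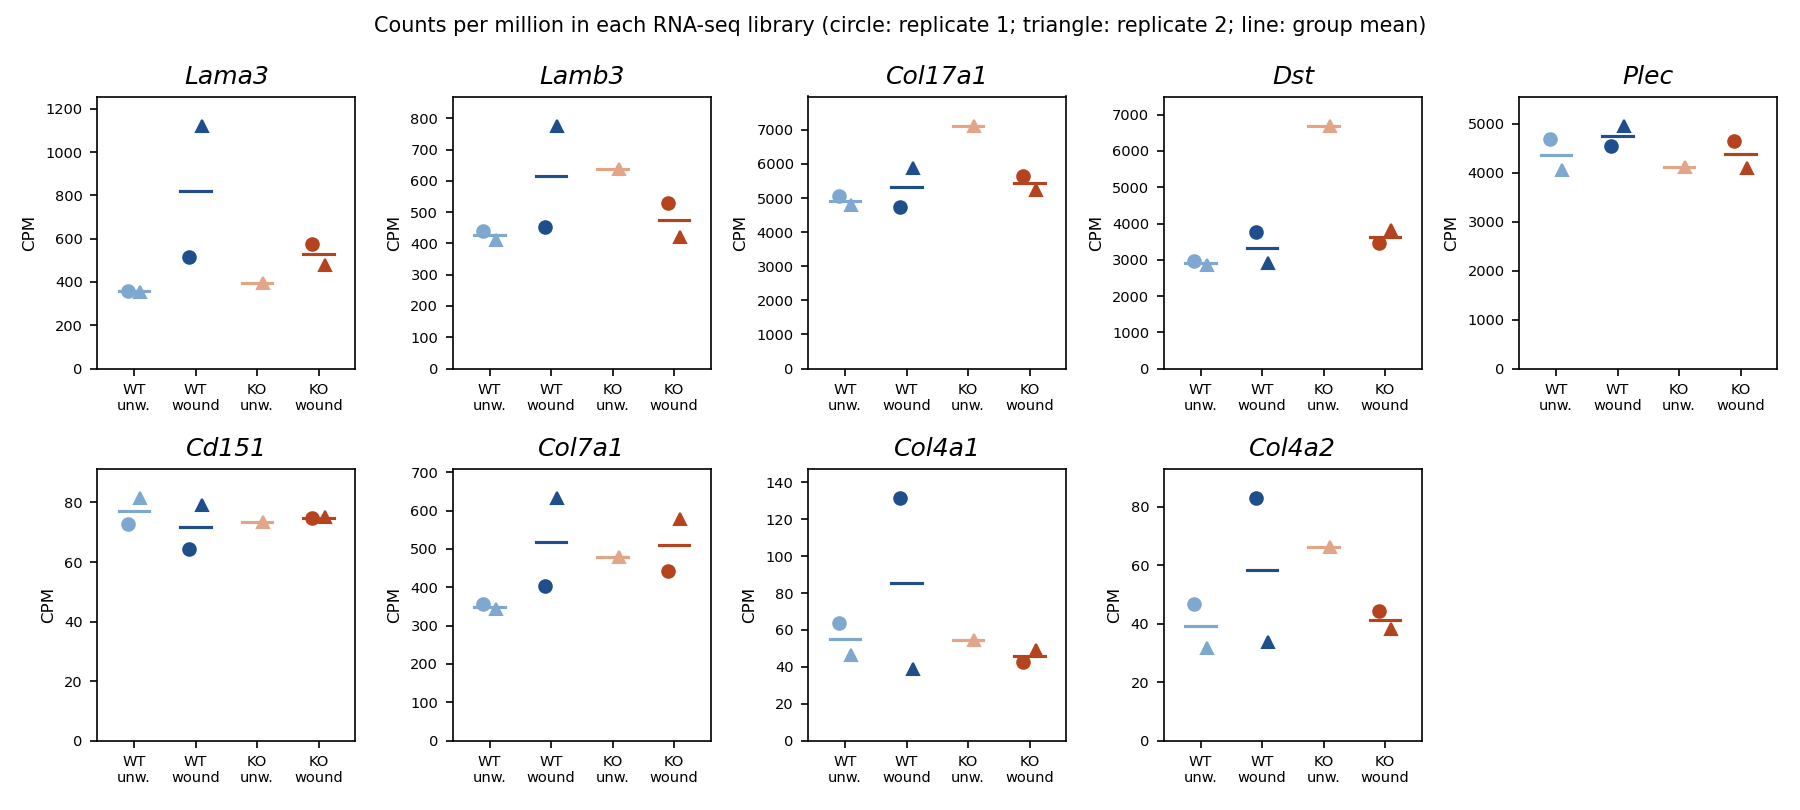
Level in CPM (vertical axis, from 0) of the 9 member genes, a panel for each gene, in the 7 RNA-seq libraries by group (horizontal axis), with a circle for replicate 1, a triangle for replicate 2 and a line at the group mean. Lama3 in WT wounded replicate 2 (1122 CPM), Dst in GRHL3 KO unwounded (6699 CPM) and Col4a1 in WT wounded replicate 1 (132 CPM) each stand above all other libraries of their panel.

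The comparison of WT wounded with WT unwounded keratinocytes asks how these genes behave at a wound edge. Of the 9 members, 3 (Lama3, Lamb3 and Col7a1) had an unadjusted P under 0.05, all higher after wounding, beside 4.84% of all genes tested. By edgeR's quasi-likelihood test 0 members had a Benjamini-Hochberg adjusted p under 0.05, beside 0.0285% of all genes (4 of 14045). DESeq2 gave the same 3 members at an unadjusted P under 0.05 and 0 after adjustment, beside 735 and 24 of all genes. The likelihood ratio test of edgeR, which called more genes (1117 unadjusted and 49 adjusted), gave these 3 and, after adjustment, 1 (Lama3). The same 3 members had both wounded libraries above both unwounded ones, as had 15.2% of all genes tested. The median log2 fold change of the 9 members was 0.56, beside 0.00 over all genes, and 8 of 9 were above 0. Markers of keratinocyte state and of other cell types also differed in the same comparison. The suprabasal markers summed to 5843 and 6519 CPM in WT unwounded and to 3345 and 4964 CPM in WT wounded keratinocytes, with 3 of 6 (Krt1, Krt10 and Sbsn) lower at an unadjusted P under 0.05, as was Krt15 among the 6 basal markers. Higher were 5 of 12 endothelial markers (Cdh5, Flt1, Kdr, Pecam1 and Plvap), 2 of 5 mural markers tested (Acta2 and Tagln), 2 of 6 leukocyte markers tested (Cd74 and Lyz2), 2 of 4 melanocyte markers tested (Dct and Tyr) and 1 of 7 fibroblast markers tested (Col1a2). The part of these markers in the members' values was not tested, and fewer cells of a kind and less RNA per cell cannot be told apart in these bulk libraries.

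Lama3 had a log2 fold change of 1.22 (SE 0.26, 2.33-fold) in WT wounded against WT unwounded keratinocytes, with an edgeR adjusted p of 0.169 that ranged from 1.10e-09 to 0.875 over the alternatives. The value was 0.54 without WT wounded replicate 2 and 1.68 without WT wounded replicate 1, so its size rests on which of these libraries is kept. Lamb3 had a log2 fold change of 0.56 (SE 0.22, 95% interval 0.10 to 1.02), which was 0.10 and no longer past the unadjusted threshold without WT wounded replicate 2, and 0.90 without WT wounded replicate 1. Lamb3 also missed that threshold without WT unwounded replicate 2, at 0.49. Col7a1 had a log2 fold change of 0.59 (SE 0.20, 95% interval 0.17 to 1.01) and was 0.89 without WT wounded replicate 1. It missed the threshold without WT wounded replicate 2, at 0.21, and without WT unwounded replicate 2, at 0.55. Thus WT wounded replicate 2, the library highest in Lama3, Lamb3 and Col7a1, carried much of each difference. The count of members past the unadjusted threshold was 1 without WT unwounded replicate 2 and ranged from 1 to 4 over the libraries left out.

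The members of the hemidesmosome showed no difference past the threshold in the same comparison. The log2 fold changes were 0.13 for Col17a1 (95% interval -0.16 to 0.43), 0.15 for Plec (-0.15 to 0.44) and -0.08 for Cd151 (-0.48 to 0.32). Dst had a log2 fold change of 0.22 (95% interval -0.08 to 0.52), which was 0.03 without WT wounded replicate 1 and, past the unadjusted threshold, 0.38 without WT wounded replicate 2. Itga6 and Itgb4, at 0.36 and 0.31, did not pass either, with 95% intervals of -0.05 to 0.76 and -0.11 to 0.72, so 0 of the 6 genes of the hemidesmosome list had an unadjusted P under 0.05 in edgeR, and their median was 0.18.

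Col4a1 had a log2 fold change of 0.65 (95% interval -0.12 to 1.43) and Col4a2 of 0.60 (-0.08 to 1.28) for WT wounded against WT unwounded keratinocytes. Both values turned with the library that was left out. Without WT wounded replicate 1, Col4a1 was at -0.47 and Col4a2 at -0.18, and without WT wounded replicate 2 they were at 1.27 and 1.09, both past the unadjusted threshold. Without WT unwounded replicate 1, Col4a2 also passed it, at 0.92. WT wounded replicate 1 was also the library with the highest sum of the 12 endothelial markers, with none of the 12 at 0. That sum was 40.9 CPM, beside 26.9 CPM in WT wounded replicate 2. WT wounded replicate 1 also held the most Acta2 (16.5 CPM), Tagln (11.9 CPM) and Myh11 (1.86 CPM), which are markers of mural cells. Of the other mural markers, Rgs5 and Abcc9 were at 0 in that library, Pdgfrb was at 0.360, Cspg4 at 125 and Notch3 at 94.4 CPM. GRHL3 KO wounded replicate 2 had an endothelial sum of 27.4 CPM with Col4a1 at 49.1 CPM. The part of other cell types in the Col4a1 and Col4a2 values was not tested.

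GRHL3 KO wounded keratinocytes were compared with WT wounded ones to ask which of these genes differ with GRHL3 at the wound edge. Of the 9 members, 2 (Lama3 and Col4a1) had an unadjusted P under 0.05, both lower in GRHL3 KO, beside 4.04% of all genes tested. By edgeR's quasi-likelihood test 0 members and 0 of all genes had an adjusted p under 0.05, DESeq2 gave 0 members at an unadjusted P under 0.05, beside 556 of all genes, and 3 genes in all after adjustment, and the likelihood ratio test gave 2 members unadjusted and 0 adjusted, beside 873 and 1 of all genes. No member had both GRHL3 KO wounded libraries below both WT wounded ones, a pattern that 17.2% of all genes showed. The median log2 fold change of the members was -0.09, beside -0.01 over all genes. Suprabasal markers summed to 6196 and 7808 CPM in GRHL3 KO wounded, above the 3345 and 4964 CPM of WT wounded keratinocytes, and 3 of 6 (Krt1, Krt10 and Krtdap) were higher at an unadjusted P under 0.05. Lower were 3 of 5 mural markers tested (Acta2, Cspg4 and Tagln), 1 of 12 endothelial markers (Flt1) and 1 of 7 fibroblast markers tested (Postn), and their part in the members' values was not tested.

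Lama3 had a log2 fold change of -0.61 (SE 0.26, 95% interval -1.15 to -0.07) between the wounded genotypes, and the values overlapped, since WT wounded replicate 1 (516 CPM) lay between the GRHL3 KO wounded libraries. For Lama3 the value was 0.07 once WT wounded replicate 2 was left out and -0.45 once GRHL3 KO wounded replicate 2 was, neither past the unadjusted threshold, and -1.07 without WT wounded replicate 1. Col4a1 had a log2 fold change of -0.88 (SE 0.37, 95% interval -1.66 to -0.09), which was -1.49 without WT wounded replicate 2 and 0.25 without WT wounded replicate 1, the library with the most Col4a1 and the highest endothelial sum. It also missed the threshold without either GRHL3 KO wounded library, at -0.80 without replicate 1 and -0.94 without replicate 2, and without the GRHL3 KO unwounded library, at -0.87. The count of members past the threshold was 0 without GRHL3 KO wounded replicate 2 and 1 without replicate 1 or without the GRHL3 KO unwounded library.

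The remaining members lay between log2 fold changes of -0.48 (Col4a2) and 0.14 (Dst) for this genotype comparison. Lamb3 was at -0.35 (95% interval -0.81 to 0.11), and it was -0.69 and past the unadjusted threshold without WT wounded replicate 1 and 0.11 without WT wounded replicate 2. Col4a2 was at 0.31 without WT wounded replicate 1 and, past the unadjusted threshold, at -0.97 without WT wounded replicate 2. For Col7a1 the log2 fold change was -0.01 (95% interval -0.43 to 0.41) and for Plec -0.09 (-0.39 to 0.20), while Cd151 was at 0.08 (-0.31 to 0.48) and Col17a1 at 0.06 (-0.24 to 0.36).

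**Figure D2:**
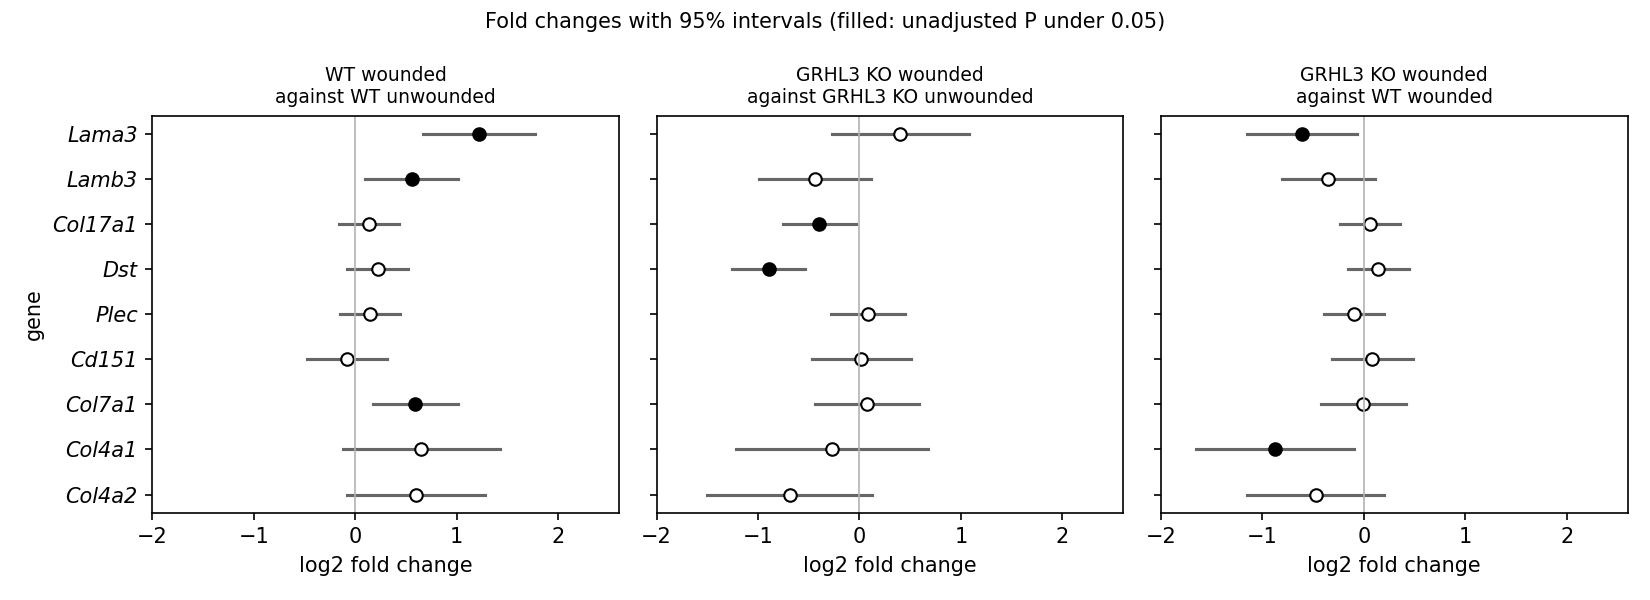
Log2 fold change (horizontal axis) of the 9 member genes (vertical axis) in 3 comparisons of the RNA-seq libraries, a panel for each, with lines for the 95% interval and filled points for an unadjusted P under 0.05. Lama3 lies at 1.22 in WT wounded against WT unwounded, and Dst at -0.90 in GRHL3 KO wounded against GRHL3 KO unwounded.

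Joining the genotypes, all 4 wounded libraries were set against all 3 unwounded ones with the 4 groups weighted equally. Of the 9 members, 2 had an unadjusted P under 0.05, Lama3 higher and Dst lower, beside 8.91% of all genes tested. By edgeR's quasi-likelihood test 0 members had an adjusted p under 0.05, beside 0.890% of all genes, and DESeq2 gave 3 members unadjusted (Col7a1 with these 2) and 0 adjusted, beside 1269 and 223 of all 14045 genes. The likelihood ratio test gave 2 members unadjusted and 1 adjusted (Lama3), beside 1569 and 283 of all genes. Lama3 alone of the members had every wounded library above every unwounded one, as had 2.74% of all genes. Its log2 fold change was 0.81 (SE 0.21, 1.76-fold), with an edgeR adjusted p of 0.0919 that ranged from 6.08e-07 to 0.485 over the alternatives. Without WT wounded replicate 2 the Lama3 value was 0.47, still past the unadjusted threshold, and Col4a1 also passed, at 0.50. Col7a1 ranged from 0.14 to 0.60 over the alternatives and was at 0.48 without WT wounded replicate 1. It passed the unadjusted threshold in 7 of 13 alternatives, among them the one without the GRHL3 KO unwounded library. Lama3 also passed that threshold without the GRHL3 KO unwounded library, with an edgeR adjusted p of 0.485. The smallest p that 4 libraries set against 3 allow in a two-sided exact permutation test is 0.0571. Dst was at -0.34 (SE 0.11, 95% interval -0.57 to -0.10), and it was at 0.30, also past the unadjusted threshold, without the GRHL3 KO unwounded library, so its direction rests on that library. In the same contrast 3 of 6 suprabasal markers (Krt1, Krt10 and Sbsn) and 1 of 6 basal ones (Krt15) were lower at an unadjusted P under 0.05, while 8 of 12 endothelial and 5 of 7 fibroblast markers tested were higher. Of the other marker lists, 1 leukocyte (Lyz2), 1 melanocyte (Dct) and 1 mural marker (Acta2) were higher and 1 mural marker (Cspg4) was lower, and what these contribute was not tested. This contrast shares its 4 WT libraries with the WT comparison.

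The comparison of GRHL3 KO wounded with GRHL3 KO unwounded keratinocytes rests on 1 unwounded library, which the fit assumes to vary like the other groups. Of the 9 members, 2 (Dst and Col17a1) had an unadjusted P under 0.05, both lower after wounding, beside 9.32% of all genes tested, and 1 (Dst) had an edgeR adjusted p under 0.05, beside 0.947% of all genes. Dst was at 6699 CPM in the unwounded library and at 3454 and 3808 CPM in the wounded ones, a log2 fold change of -0.90 (SE 0.17). Its edgeR adjusted p was 0.0217 and ranged from 7.39e-05 to 0.0875 over the alternatives, with 0.0875 without GRHL3 KO wounded replicate 1, 0.0513 without GRHL3 KO wounded replicate 2 and 0.0634 over genes with at least 10 counts in every library. Col17a1 had a log2 fold change of -0.40 (SE 0.17, 95% interval -0.75 to -0.04). It missed the threshold at -0.30 without GRHL3 KO wounded replicate 2, and at -0.40 without either WT unwounded library. The count of members past the unadjusted threshold was 1 when GRHL3 KO wounded replicate 2 or either WT unwounded library was left out, and 4 when either WT wounded library was left out, with Lamb3 (-0.43) and Col4a2 (-0.69) then past it as well. Here too markers differed at an unadjusted P under 0.05, with Krt15, Krt10 and Sbsn lower, Krtdap higher, and 5 of 12 endothelial and 4 of 7 fibroblast markers tested higher. Of the rest, Lyz2, Dct and Acta2 were higher and Cspg4 lower, and their part in the Dst and Col17a1 values was not tested. The library against which Dst and Col17a1 fell has the female pattern of sex-linked genes, and both wounded libraries have the male one. The part of that difference in these values cannot be told apart from the group.

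The wound responses of the genotypes were also compared directly, by the difference between their log2 fold changes, again with the single GRHL3 KO unwounded library assumed to vary like the other groups. Of the 9 members, 4 had an unadjusted P under 0.05, all with a lower response in GRHL3 KO, beside 6.77% of all genes tested. By edgeR's quasi-likelihood test 0 members had an adjusted p under 0.05, beside 0.185% of all genes, and DESeq2 gave 4 members unadjusted and 1 adjusted (Dst), beside 926 and 85 of all 14045 genes. The likelihood ratio test gave 3 members unadjusted and 0 adjusted, beside 1177 and 98 of all genes. The difference was -1.12 for Dst (SE 0.22), with an edgeR adjusted p of 0.0584 that ranged from 4.69e-04 to 0.378 over the alternatives. For Lamb3 it was -0.99 (SE 0.34, 95% interval -1.71 to -0.28), and -0.53 and no longer past the unadjusted threshold without WT wounded replicate 2. Col4a2 was at -1.29 (SE 0.50, 95% interval -2.35 to -0.23) and Col17a1 at -0.53 (SE 0.22, 95% interval -0.996 to -0.06). Col4a2 missed the threshold at -0.50 without WT wounded replicate 1, -1.03 without WT unwounded replicate 2 and -1.15 without GRHL3 KO wounded replicate 2. Col17a1 missed it at -0.34 without WT wounded replicate 2 and -0.48 without WT unwounded replicate 2. The count of members past the threshold was 2 without WT unwounded replicate 2 and at most 5 over the libraries left out. For Lama3 the difference of -0.82 did not pass (95% interval -1.67 to 0.03). It was -1.27 and past the unadjusted threshold without WT wounded replicate 1, -0.13 without WT wounded replicate 2, and also past it without the filter on low counts, at -0.82. Of the other members, Col7a1 passed at -0.81 without WT wounded replicate 1, and Col4a1 at -1.53 without WT wounded replicate 2 and at -0.92 without the filter. Among the markers of cell types, Krt15 and Cspg4 had a lower and Krtdap, Vwf, Col3a1 and Thy1 a higher response in GRHL3 KO at an unadjusted P under 0.05, and their part was not tested. All of these values use the single GRHL3 KO unwounded library, in which Dst, Col17a1 and Lamb3 were at or near their highest level, and none can be computed without it. That library alone had the female pattern of sex-linked genes, whose part cannot be told apart from the group.

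Other laminin chains were examined beside Lama3 and Lamb3. Lamb1, the beta chain of the laminins that Lama1 and Lama5 also enter, was at 32.7 and 31.8 CPM in WT unwounded, 73.3 and 50.004 CPM in WT wounded, 24.3 CPM in GRHL3 KO unwounded, and 24.9 and 31.0 CPM in GRHL3 KO wounded keratinocytes. Its WT wounded libraries were above all other libraries, with a log2 fold change of 0.96 (SE 0.24) on WT wounding. The log2 fold change of Lamb1 was -1.12 (SE 0.24, 95% interval -1.64 to -0.61) for GRHL3 KO wounded against WT wounded. Both WT wounded libraries lay above both WT unwounded ones for 15.2% of all genes, and above both GRHL3 KO wounded ones for 17.2%. Lama1 was at 8.26 and 7.08 CPM in WT unwounded, 22.3 and 17.9 CPM in WT wounded, 22.7 CPM in GRHL3 KO unwounded, and 29.2 and 31.1 CPM in GRHL3 KO wounded keratinocytes. It was lowest in WT unwounded and highest in GRHL3 KO wounded, with a log2 fold change of 1.41 (SE 0.28, 95% interval 0.81 to 2.02) on WT wounding. Lama1 was also higher in GRHL3 KO wounded than in WT wounded at an unadjusted P under 0.05, as 4.04% of all genes differed there. Its wound response was lower in GRHL3 KO at the same threshold, a difference that rests on the single GRHL3 KO unwounded library and that 6.77% of all genes passed.

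Lama5, Lamc1 and Lamb2, chains of the laminins most basement membranes share, did not pass in any of the comparisons.

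Of the 6 type IV collagen chains, 0 passed at an unadjusted P under 0.05 in WT wounding by edgeR's quasi-likelihood test, 2 (Col4a1 and Col4a4) were lower in GRHL3 KO wounded than in WT wounded, and 3 (Col4a4, Col4a5 and Col4a6) were lower in GRHL3 KO wounded than in the GRHL3 KO unwounded library. Of all genes tested, 4.84%, 4.04% and 9.32% passed in these comparisons, in either direction. Col4a5 and Col4a6, which lie beside each other on the X chromosome, were highest in the GRHL3 KO unwounded library, at 102 and 123 CPM. In the other 6 libraries they spanned 37.1 to 77.0 and 35.4 to 77.0 CPM. With Xist at 1101 CPM in that library, the part of the X chromosome in these values was not tested.

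Of 13 other basement membrane genes, 4 were higher (Col15a1, Fbln2, Fras1 and Sparc) and 0 lower at an unadjusted P under 0.05 in WT wounding, beside 446 higher and 234 lower of all 14045 genes tested. Hspg2, which encodes perlecan, was at 259 and 275 CPM in WT unwounded, 338 and 277 CPM in WT wounded, 128 CPM in GRHL3 KO unwounded, and 197 and 189 CPM in GRHL3 KO wounded keratinocytes. Every GRHL3 KO library was below every WT library, and the log2 fold change was -0.65 (SE 0.16, 95% interval -0.996 to -0.30) between the wounded genotypes. There, 3 of the 13 were lower (Col18a1, Fbln2 and Hspg2) and 0 higher, beside 292 lower and 275 higher of all genes. By edgeR's quasi-likelihood test 0 of the 13 passed after adjustment, with a smallest adjusted p of 0.848. Both GRHL3 KO wounded libraries lay below both WT wounded ones for 17.2% of all genes, and the share over all libraries was not computed. Of 6 laminin receptor genes, Itgb1 alone was higher in WT wounding (log2 fold change 0.55, 95% interval 0.14 to 0.97) and lower in GRHL3 KO wounded than in WT wounded (-0.56, 95% interval -0.98 to -0.14). Of 5 plakin relatives, 0 passed in WT wounding by edgeR and Eppk1 alone was higher in GRHL3 KO wounded than in WT wounded. Of 11 genes that process collagens and laminins, 2 (Serpinh1, a collagen chaperone, and Tll1) were higher in WT wounding and Tll1 was lower in GRHL3 KO wounded. Of 6 genes known from wound-edge keratinocytes, 5 (Itga5, Krt16, Krt6a, Krt6b and Mmp9) were higher in WT wounding, and 3 (Itga5, Krt17 and Mmp9) were lower in GRHL3 KO wounded than in WT wounded. In WT wounding the libraries overlapped for Krt6a and Krt6b but not for Itga5, Krt16 and Mmp9. WT unwounded replicate 2 (1642 CPM for Krt6a and 266 CPM for Krt6b) lay above WT wounded replicate 1 (1483 and 233 CPM). Of the same 6, 3 (Krt16, Krt6a and Krt6b) were higher in GRHL3 KO wounded than in the single GRHL3 KO unwounded library. The response of Krt6b was higher and that of Mmp9 lower in GRHL3 KO than in WT, in a contrast that 6.77% of all genes passed. Krt6b was at 4.15 CPM in that single library. Mmp9 was at 0 counts in both WT unwounded libraries, so the size of its WT response rests on the floor.

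Other genes of these lists also passed at an unadjusted P under 0.05 against the GRHL3 KO unwounded library, in a comparison where 9.32% of all genes did. In GRHL3 KO wounded keratinocytes 6 of the 13 other basement membrane genes (Col15a1, Col18a1, Fbln2, Fras1, Hspg2 and Tinagl1) and the laminin receptor gene Bcam were higher, and the plakin relative Ppl and the processing genes Mmp14 and Tll1 were lower.

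The genes most alike to a member were found from centred log2 CPM over the 7 libraries, among 8886 genes with a mean log2 CPM of at least 3. Nearest to Lama3 was Itga2, a chain of a collagen-binding integrin, at a root mean square difference of 0.122, followed by Mboat1 (0.249) and Samhd1 (0.251), beside a median of 0.588 over all genes. Itga2 was at 20.4 and 22.1 CPM in WT unwounded, 28.2 and 61.8 CPM in WT wounded, 23.1 CPM in GRHL3 KO unwounded, and 31.5 and 22.1 CPM in GRHL3 KO wounded keratinocytes. Like Lama3, Itga2 was highest in WT wounded replicate 2. Nearest to Lamb3 were Pea15a (0.126), Polr3a (0.129) and Trim47 (0.135), beside a median of 0.409. Nearest to Col4a1 were Qtrtd1 (0.238), Dusp10 (0.240) and Dusp8 (0.253), beside a median of 0.589.

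ATAC-seq marks stretches of open chromatin, and the deposited lists give each peak a fold enrichment over its local background and a q-value. The lists held 10769 peaks in WT unwounded, 36872 in WT wounded, 29364 in GRHL3 KO unwounded and 22474 in GRHL3 KO wounded keratinocytes. As there is 1 list a condition, differences between lists have no replicate check, and they also follow how many peaks were called. Within 5 kb of a member gene lay 7 peaks in WT unwounded, 37 in WT wounded, 35 in GRHL3 KO unwounded and 14 in GRHL3 KO wounded keratinocytes. With the lists trimmed to 10769 peaks each, the counts were 7, 9, 4 and 4, so the higher counts of the longer lists came from peaks outside the strongest 10769.

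In WT unwounded keratinocytes 7 of the 9 members had a peak in the gene or within 5 kb, beside 34.8% of 21938 protein-coding genes. It was 8 of 9 in WT wounded, beside 62.3%, 9 of 9 in GRHL3 KO unwounded, beside 58.5%, and 7 of 9 in GRHL3 KO wounded keratinocytes, beside 49.2%. Several members are long genes with more room for a peak, Dst being 400.4 kb long and Lama3 249 kb. Per 100 kb the members held 0.630, 2.99, 2.91 and 1.18 peaks in the 4 lists in that order, and all protein-coding genes 0.777, 2.27, 1.88 and 1.43.

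Joined over the 4 lists, the peaks formed 47 regions, counting once the 2 that lie near both Col4a1 and Col4a2, of which 5 were listed in all 4 conditions, or 10.6%, beside 22.2% of 42950 regions in the genome. Regions listed in WT wounded and GRHL3 KO unwounded but in neither other list made up 23.4% (11 of 47), beside 13.9% of all regions, and regions of the GRHL3 KO unwounded list alone 19.1% (9), beside 8.82%. Regions of the WT wounded list alone made up 23.4% (11), near the 22.9% of all regions. Those missing from the WT unwounded list alone made up 14.9% (7), beside 19.9%. Dst, with 13 regions, had 1 peak in WT unwounded, 11 in WT wounded, 10 in GRHL3 KO unwounded and 4 in GRHL3 KO wounded keratinocytes. Col4a2 had 1, 7, 8 and 3 peaks in the same order, Lamb3 had 2, 6, 4 and 2, Lama3 had 1, 5, 3 and 2, and Col4a1 had 1, 3, 5 and 2. Plec had 0, 2, 3 and 1, Cd151 had 1, 3, 2 and 1, and Col7a1 had 1, 1, 1 and 0, all within a single upstream region. Col17a1, highest of the 9 members per kb of exon, had 0, 0, 1 and 0 peaks.

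The 9 members have 23 annotated transcript starts, counting starts within 500 bases as 1, and 2, 7, 7 and 3 of them lay under a peak in WT unwounded, WT wounded, GRHL3 KO unwounded and GRHL3 KO wounded keratinocytes. Over all protein-coding genes 16.1%, 32.9%, 29.8% and 24.9% of starts did. Lamb3 (chr1:193207699-193343878 in mm10, plus strand) has 2 starts. The downstream one, 94294 bases into the gene, lay under a peak in all 4 lists at fold enrichments of 3.59, 4.40, 3.76 and 4.17, and the upstream one in none. Dst (chr1:33908225-34308661, plus strand) has 4 starts, and the last, at position 34160330, was under a peak in WT wounded and GRHL3 KO unwounded keratinocytes (3.58 and 3.70). A WT unwounded peak of 4.15 in the same region did not cover it. A WT wounded peak of 5.22 (chr1:34011309-34011512) lay within 1 kb of the Dst start at position 34011813 without covering that start. Plec (chr15:76170974-76232574, minus strand) has 9 starts, of which 1 was under a peak in WT wounded (3.74) and a different 1 in GRHL3 KO wounded (3.14). A GRHL3 KO unwounded peak of 3.47 lay in the region of the former start without covering it. Likewise, a WT wounded peak of 3.34 reached the region of the latter start but not the start itself. Col17a1 (chr19:47646344-47692094, minus strand) and Col7a1 (chr9:108953586-108984875, plus strand) have 1 start each, which no list covered.

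Lama3 (chr18:12333819-12583013, plus strand) has 2 starts that lie 170380 bases apart and serve a long and a short form of the chain. Both were under a peak in WT wounded keratinocytes, at fold enrichments of 5.60 and 5.46, and in GRHL3 KO unwounded keratinocytes, at 3.15 and 5.74, and neither was in WT unwounded. In GRHL3 KO wounded keratinocytes a peak of 5.98 reached the region of the second start (chr18:12503763-12504242) without covering the start itself, and the first start had no peak. Gene counts pool both forms, so the RNA values cannot tell which start was used. An intronic region centred 25499 bases into Lama3 (chr18:12358960-12359676) was listed in all 4 conditions at fold enrichments of 4.15, 4.84, 4.29 and 3.99. Another intronic region of Lama3 (chr18:12505330-12505662) was listed in WT wounded keratinocytes alone, at 2.87.

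Cd151 (chr7:141467392-141471473, plus strand) has 2 starts, the downstream one under a peak in all 4 lists at fold enrichments of 3.43, 5.14, 3.96 and 4.04 and the upstream one in WT wounded keratinocytes at 3.12. Col4a1 (chr8:11198423-11312826, minus strand) and Col4a2 (chr8:11312805-11449287, plus strand) are transcribed away from each other, and their first exons overlap by annotation, so counts in that short stretch can be ambiguous. A peak over both starts (chr8:11312753-11312988) was listed in GRHL3 KO unwounded keratinocytes alone, at 3.76. The strongest shared region lay in an intron of Col4a1, centred 5270 bases from its start (chr8:11307212-11307901), with fold enrichments of 6.17, 5.50, 4.68 and 6.12 in WT unwounded, WT wounded, GRHL3 KO unwounded and GRHL3 KO wounded keratinocytes. The Col4a1 and Col4a2 counts had a ratio of 1.36 and 1.47 in WT unwounded, 1.59 and 1.15 in WT wounded, 0.827 in GRHL3 KO unwounded, and 0.956 and 1.29 in GRHL3 KO wounded keratinocytes.

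**Figure D3:**
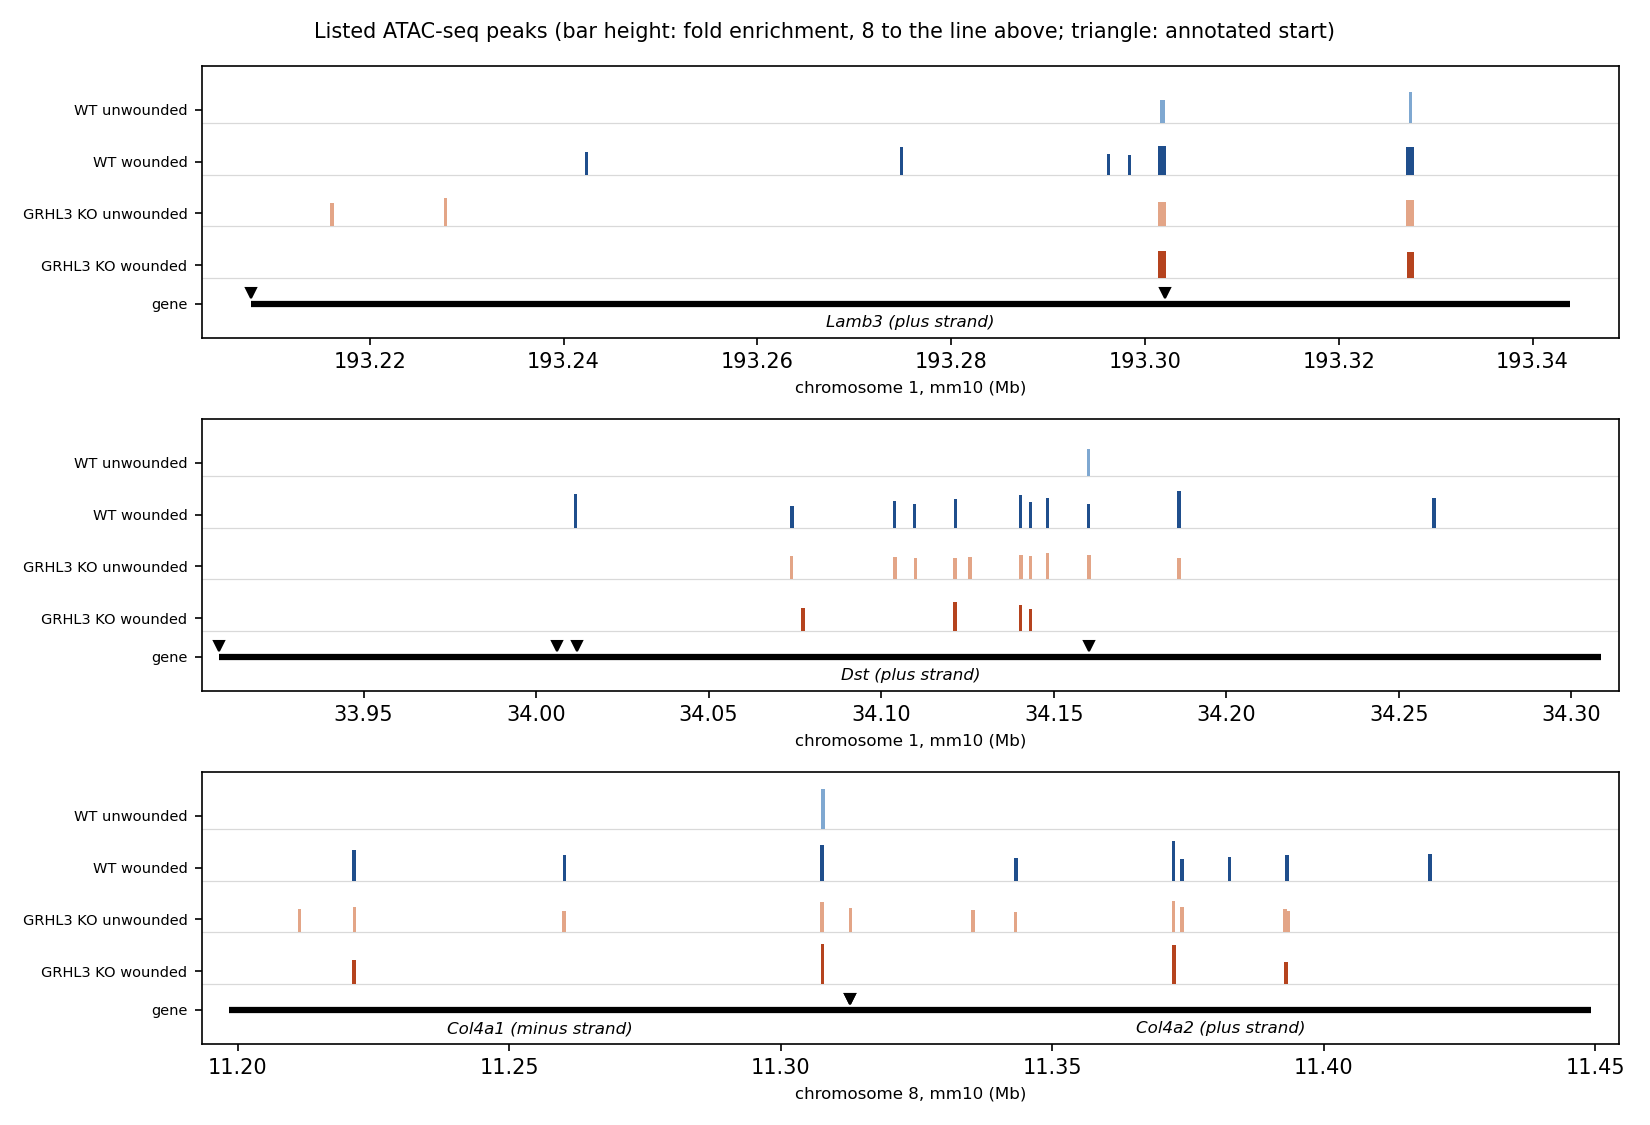
Listed ATAC-seq peaks (bars, with height for fold enrichment) along Lamb3, Dst, and Col4a1 with Col4a2 (horizontal axis, position in mm10 in Mb), with a row for each of the 4 lists (vertical axis), a thick line for the gene and triangles for annotated starts. Dst has 1, 11, 10 and 4 peaks in WT unwounded, WT wounded, GRHL3 KO unwounded and GRHL3 KO wounded keratinocytes.

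Windows of 300 bases at the centres of peaks were searched for AACNNGTT, a core of the motif bound by Grainyhead-like factors, and for TGANTCA, a motif of AP-1 factors, both of which read the same on either strand and do not overlap each other in the windows shown. AACNNGTT was in the windows of 2 of the 47 member regions (4.26%), beside 5.56% to 6.56% of the windows of all peaks in the 4 lists, and TGANTCA in those of 13 of 47 (27.7%), beside 24.4% to 27.8%. The rest of a longer region was not searched. The AACNNGTT matches were in a region upstream of Plec and in the intronic region of Lama3 listed in WT wounded keratinocytes alone at a fold enrichment of 2.87. In RefSeq promoters of GRCm38.p6, from 250 bases before to 50 after a gene's start, 1 of 10 promoters of Dst, Lamb3, Cd151, Col4a1, Col4a2, Col7a1 and Col17a1 held AACNNGTT (Cd151), beside 4.20% of 32851 promoters, and 0 of 10 held TGANTCA, beside 7.81%. Promoters of Lama3 and Plec were not searched. A match is a description of letters and shows no binding.

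The following windows were chosen after their values were seen, to show, for Dst and Col4a2, the intronic region with the highest fold enrichment in WT wounded keratinocytes among those not listed in WT unwounded keratinocytes. Each holds TGANTCA at 2 places. The Dst window (mm10 chr1:34186116-34186415, plus strand, intron) overlaps peaks of 5.62 in WT wounded and 3.37 in GRHL3 KO unwounded, and the Col4a2 window (mm10 chr8:11372175-11372474, plus strand, intron) overlaps peaks of 6.20 in WT wounded, 4.89 in GRHL3 KO unwounded and 5.99 in GRHL3 KO wounded keratinocytes. The GRHL3 KO wounded peak (chr8:11372256-11372563) takes in the second TGANTCA of the Col4a2 window but not the first. Capitals mark TGANTCA.
Dst intron: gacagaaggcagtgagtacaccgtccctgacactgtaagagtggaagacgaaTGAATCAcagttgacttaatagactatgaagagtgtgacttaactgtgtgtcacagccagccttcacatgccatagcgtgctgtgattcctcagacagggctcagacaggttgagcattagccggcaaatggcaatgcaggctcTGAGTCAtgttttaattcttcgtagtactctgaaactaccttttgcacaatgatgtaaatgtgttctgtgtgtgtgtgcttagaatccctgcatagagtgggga
Col4a2 intron: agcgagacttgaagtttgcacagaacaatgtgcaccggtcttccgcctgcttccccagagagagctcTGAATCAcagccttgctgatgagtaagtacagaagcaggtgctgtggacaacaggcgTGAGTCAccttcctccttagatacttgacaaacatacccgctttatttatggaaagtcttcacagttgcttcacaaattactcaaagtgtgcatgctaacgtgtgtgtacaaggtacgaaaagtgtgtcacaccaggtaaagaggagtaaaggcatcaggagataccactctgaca

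The AACNNGTT matches of Plec and of the Cd151 promoter are shown next, with the bases around them, as 2 of the places at the members where the core of the Grainyhead-like motif was found. The Plec window (mm10 chr15:76232838-76233137, plus strand) lies upstream of the gene around a peak of the GRHL3 KO unwounded list alone, at 3.89. The Cd151 promoter (GRCm38.p6 chr7:141467112-141467411, plus strand, from RefSeq) overlaps a peak of the WT wounded list alone, at 3.12, and its match lies in that peak but outside the window searched there. Capitals mark AACNNGTT.
Plec upstream: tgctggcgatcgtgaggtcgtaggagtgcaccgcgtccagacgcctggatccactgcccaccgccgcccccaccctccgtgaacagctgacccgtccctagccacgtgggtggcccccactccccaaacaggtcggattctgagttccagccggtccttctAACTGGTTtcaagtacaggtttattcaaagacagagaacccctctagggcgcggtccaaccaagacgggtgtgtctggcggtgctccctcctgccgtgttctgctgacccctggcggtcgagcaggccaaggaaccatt
Cd151 promoter: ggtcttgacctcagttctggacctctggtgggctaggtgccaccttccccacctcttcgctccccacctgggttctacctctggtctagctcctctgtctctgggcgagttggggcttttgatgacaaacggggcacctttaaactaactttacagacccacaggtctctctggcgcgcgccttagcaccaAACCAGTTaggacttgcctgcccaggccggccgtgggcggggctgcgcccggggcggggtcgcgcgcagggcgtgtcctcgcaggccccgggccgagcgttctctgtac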

How the data were processed

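RNA-seq and ATAC-seq of sorted mouse keratinocytes were used. For each RNA-seq library, the deposited table holds a raw count for every gene. Their notes name FastQC and Kallisto, while the last lines of each table are of the kind a read counter writes, so which step made the counts and whether strand was used are not given in the sources used here. Those lines, which name no gene, were left out. Reads not uniquely placed were 3.46% to 4.74% and ambiguous reads 1.34% to 1.45% of the total. For ATAC-seq the authors used Trimmomatic, bowtie2 and MACS2 on mm10 and deposited broad peaks with a fold enrichment ratio and −log10 p-values and q-values, and the deposited score was not used.

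Counts were tested with edgeR 4.0.16 in R 4.3.3 after TMM scaling and edgeR's filter on low counts, which kept 14045 of 24421 genes. One quasi-likelihood fit over the 4 groups gave every contrast, with Benjamini-Hochberg adjustment over all genes tested. Standard errors are the absolute log2 fold change over the square root of the test's F, and fold changes use edgeR's default prior count. A prior count of 2 was used only for the log2 CPM of the most alike genes and of the correlations between libraries. The biological coefficient of variation was 31.6%. The steps were tested on simulated data. Alternatives were DESeq2 1.42.0, edgeR's likelihood ratio test, RLE scaling, dropping the filter or asking for 10 counts of a gene in all libraries, the replicate number as a block, only the libraries compared, and each library left out in turn. For peaks they were a fold of at least 4, a q of at most 0.01, a distance of 10 kb and lists of equal length.

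Exon lengths, transcript starts and gene positions came from GENCODE M21, in which 23376 symbols were found. Peaks within 5 kb of a gene were counted for it. Plec shares exon positions with Parp10, and Col4a1 with Col4a2, so reads there cannot be told apart.

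Genes were named if they were members or belonged to lists of type IV collagen chains, hemidesmosome genes, laminin receptors, other basement membrane genes, plakin relatives, collagen and laminin processing, wound keratinocytes and cell type markers, or were among the 3 genes most alike to a member. Lama1, Lama5, Lamb1, Lamb2 and Lamc1 were also named. Sex-linked genes were added to check libraries. Some results are not reported here. The members and lists were chosen with earlier results of these data known.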

Additional observations from a re-analysis of the deposited data

Results flagged for a closer look

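For 4 members the test of the difference between the wound responses of the genotypes gave an unadjusted P under 0.05, with the single GRHL3 KO unwounded library assumed to vary like the other groups. The difference between log2 fold changes, GRHL3 KO minus WT, was -0.99 for Lamb3, -0.53 for Col17a1, -1.12 for Dst and -1.29 for Col4a2. After Benjamini-Hochberg adjustment over all genes, 0 of the 9 members passed edgeR's quasi-likelihood test, with 951 of 14045 genes at an unadjusted P under 0.05 and 26 after adjustment, and DESeq2 called 1 member (Dst) and 85 of all genes. Each value uses that library, whose part in them cannot be told apart from the group.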

How the results depend on the processing

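Of 337 alternative values, 273 kept their direction and side of the threshold or stayed within 1.5 times the reported count, 11 no longer passed, 11 newly passed, 16 changed sign and 26 counts or values moved further. The causes were not tested.

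The count of members at an unadjusted P under 0.05 was 5 without the filter for WT wounding. For GRHL3 KO wounded against WT wounded it was 0 with DESeq2, 4 without the filter and 1 with only the 4 libraries compared. For GRHL3 KO wounded against unwounded it was 1 with the likelihood ratio test, 4 without the filter and 1 with at least 10 counts in every library. With a library left out, it ranged from 1 to 4 for WT wounding, 0 to 2 for the wounded genotypes, 2 to 3 for all wounded, 1 to 4 for GRHL3 KO wounding and 2 to 5 for the difference between responses.

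With the replicate block the counts were 4, 2, 3, 3 and 5 in that order, and Col7a1 between the wounded genotypes changed sign, to 0.0113. Deviations of libraries with the same number had a correlation of 0.154 between WT unwounded and WT wounded, the only pair within a genotype. Between WT wounded and GRHL3 KO wounded it was -0.0386, and between WT unwounded and GRHL3 KO wounded -0.0109. The numbers were not taken to pair samples in the main fit, and for WT these values do not settle whether they do. For GRHL3 KO replicate 2, Xist was at 1101 CPM unwounded and 1.75 CPM wounded, and Ddx3y at 0 and 130 CPM. As labelled, these libraries are therefore not from the same animal, although the replicate block treats them as matched.

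Leaving out a library also changed signs. In WT wounding the log2 fold change ranged from -0.0480 to 0.29 for Col17a1, -0.25 to 0.0618 for Cd151, -0.47 to 1.27 for Col4a1 and -0.18 to 1.09 for Col4a2. Between the wounded genotypes it ranged from -1.07 to 0.0718 for Lama3, -0.69 to 0.11 for Lamb3, -0.0939 to 0.24 for Col17a1, -0.0122 to 0.33 for Dst, -0.22 to 0.0276 for Plec, -0.0584 to 0.25 for Cd151, -0.30 to 0.38 for Col7a1, -1.49 to 0.25 for Col4a1 and -0.97 to 0.31 for Col4a2.

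Peaks near members with a fold enrichment of at least 4 numbered 4, 19, 7 and 8 in WT unwounded, WT wounded, GRHL3 KO unwounded and GRHL3 KO wounded keratinocytes. At a q of at most 0.01 there were 18 in GRHL3 KO unwounded and 9 in GRHL3 KO wounded, and in lists of equal length 9 in WT wounded, 4 in GRHL3 KO unwounded and 4 in GRHL3 KO wounded.

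Groups held 1 or 2 libraries and no ATAC-seq condition was repeated. Every member had at least 522 counts in each library. For Cd151, the GRHL3 KO wounded libraries had 1139 and 1072 counts and a standard deviation of 0.18 CPM. Counting error was not small beside that spread, and it was not set against the spread of each other member.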
